A study of Mus musculus with 2 samples.

Results

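The expression of 40 cell cycle genes was described in leukocytes of the inflamed mouse spinal cord. The genes were chosen by name, with no measured value in the rule, and are 40 of the 28482 genes in the deposited count matrix. All 40 had a row in it. By their known roles, 23 act in G2 phase and mitosis (called G2/M genes below). The other 17 are called S genes and act in or just before DNA synthesis, except Stmn1, which acts on microtubules. Stmn1 was listed with the S genes and enters their sums and ratios below, and only Pcna had more counts among them. A cell was counted as cycling where Mki67 and Top2a both had at least 1 count, and this rule was applied per cell type and mouse.

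The cells came from 4 C57BL/6 mice, in all of which experimental autoimmune encephalomyelitis (EAE), a model of multiple sclerosis in which T cells attack myelin, had been induced. Spinal cords were taken on day 15 after induction, and CD45+ cells, that is leukocytes and microglia, were stained with antibodies that carry hashtags. Of the mice, 2 were untreated and 2 had received an inhibitor, and no mouse without EAE is among them. Which inhibitor it was, how much of it was given and when, and the animals' age and sex are not stated in the sources used here. The title of the series also names STAP-1 mice, but the labels of these 4 mice give the strain C57BL/6 and no other genotype. Values per mouse are given below in the order untreated 1, untreated 2, inhibitor 1, inhibitor 2.

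After removal of cells with more than 1 hashtag, damaged cells and likely doublets, 19243 cells were kept: 4316, 4523, 5450 and 4954 in the 4 mice. Total counts per mouse ranged from 48448476 to 61346683, and the median count per cell from 8174 to 8557.5. Clusters were formed without cell cycle genes and named from marker genes, so a name such as CD4 T cells stands for CD4 T-like cells. They made up 17 types, of which the cells led by Xcl1 and Cd160 kept the names of their leading genes: they held markers of NK cells, and the T cell gene Cd3e was detected in 63.2% of them. Ptprc, the gene of CD45, was detected in 79.6% of the kept cells, from 37.8% of the B cell precursors to 93.7% of the NK cells. Erythroid cells, which lose CD45 as they mature, were also present (93 cells, 55.9% with Ptprc).

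A dividing cell first copies its DNA in S phase and then separates the copies in mitosis, with gaps named G1 and G2 in between. Genes for the replication machinery are switched on around the entry into S phase by E2F factors. Those for the mitotic machinery follow in G2 through B-MYB and FOXM1. Most leukocytes in blood and tissue rest outside the cycle. Precursors in bone marrow divide, lymphocytes divide after meeting antigen, microglia can renew themselves locally, and mature neutrophils no longer divide.

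The promoters of the 2 groups of genes differ in the short sequences they hold. Those of 4 members are shown as picked examples. Whether these sequences relate to the members' values was not tested. RefSeq promoters (GRCm38.p6) were matched by symbol for 32 of the 40 genes. Gmnn, Ccna2, Tpx2, Stmn1, Ccne2, Aurkb, Kif20a and Mcm4 were not matched. In the 250 bases before the start, 3 kinds of motif were searched on both strands. They included CCAAT, the box bound by NF-Y, and TTTGAA, the core of the cell cycle homology region bound by the DREAM complex. The third kind was the E2F words TTTGGCGC, TTTCCCGC, TTTGCCGC and TTTCGCGC. Matches could overlap, and a promoter was counted once for each kind of motif. The 4 windows below were picked for their motifs. They belong to the 2 members of each group with the most counts whose window held CCAAT and TTTGAA (G2/M) or an E2F word (S). Pcna, the S gene with the most counts, was passed over because its window held no E2F word. Mcm7 had 2 windows, and the one not shown held no E2F word. Capitals mark each match, written as its reverse complement where the motif lies on the other strand (ATTGG for the CCAAT box).
Mki67, chr7:135716462-135716577, minus strand, 198 to 83 bases before the start: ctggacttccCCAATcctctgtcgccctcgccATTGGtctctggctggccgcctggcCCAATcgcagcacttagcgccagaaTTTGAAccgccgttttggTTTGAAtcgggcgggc
Top2a, chr11:99024197-99024426, minus strand, 237 to 8 bases before the start: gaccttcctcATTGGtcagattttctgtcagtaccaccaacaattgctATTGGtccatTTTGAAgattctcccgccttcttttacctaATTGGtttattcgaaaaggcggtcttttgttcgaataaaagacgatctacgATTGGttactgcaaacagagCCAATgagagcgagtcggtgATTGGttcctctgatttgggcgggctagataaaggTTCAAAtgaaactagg
Mcm7, chr5:138171895-138172058, minus strand, 175 to 12 bases before the start: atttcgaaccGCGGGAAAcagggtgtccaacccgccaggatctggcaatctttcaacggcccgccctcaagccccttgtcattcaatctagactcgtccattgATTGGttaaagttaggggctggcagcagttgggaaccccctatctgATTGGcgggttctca
Mcm5, chr8:75109346-75109501, plus strand, 163 to 8 bases before the start: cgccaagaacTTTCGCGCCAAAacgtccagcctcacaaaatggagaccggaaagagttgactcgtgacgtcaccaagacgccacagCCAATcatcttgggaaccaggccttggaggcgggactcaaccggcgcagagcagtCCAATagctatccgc
In Mcm5 the first run of capitals is 2 overlapping E2F words on opposite strands.

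A CCAAT box was found in 17 of the 19 matched G2/M promoters (89.5%) and in 9 of the 13 matched S promoters (69.2%), against 37.5% of the promoters of all 27025 symbols. TTTGAA was found in 8 of 19 G2/M promoters (42.1%) and in 1 of 13 S promoters (7.69%), against 18.3% of all. The E2F words ran the other way, with 6 of 13 S promoters (46.2%) and 1 of 19 G2/M promoters (5.26%), that of Cdk1, against 2.16% of all. Among 80 further cell cycle genes, 65 were matched, and 60% held a CCAAT box, 30.8% TTTGAA and 18.5% an E2F word. A match describes the letters in this window and is not a measured binding site. By the gene annotation of the same build, Mki67 lies at chr7:135689784-135716361 and Top2a at chr11:98992943-99024189, and the 40 genes lie on 17 chromosomes. Of the 40, 17 overlap another annotated gene, 14 of them on the opposite strand. No source used here says whether the counting used strand, so reads of such partners cannot be told apart.

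The rule marked 1214 of the 19243 cells as cycling (6.31%). Mki67 encodes the Ki-67 protein that coats mitotic chromosomes, and Top2a encodes the topoisomerase that untangles the copied DNA. The other 38 members, which the rule did not use, were detected together in these cells. A cycling cell held a median of 20 of the 38 (quartiles 14 and 26), and a cell with neither gene held a median of 1. The 1532 cells with Mki67 alone and the 1008 with Top2a alone held a median of 2. At least 10 of the 38 were detected in 83.0% of the cycling cells and in 0.265% of the cells with neither gene. The 41 cells that passed the rule with exactly 1 count of each gene held a median of 3, so the lowest values that pass lie near those just outside. Cycling cells were deeper, with a median of 21997 counts against 7614. When the cells with at least 3000 counts were thinned to that number, the medians were 11 in 1195 cycling cells and 0 in 14329 cells with neither gene.

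The rule rests on 2 genes of the G2/M group and does not place a cell in a phase. The cells it selected also held S genes. Detection of the other members in cycling cells is a description with no test. Each of the other 21 G2/M genes was detected in a median of 56.6% of cycling cells and 1.97% of the rest, and an S gene in 48.1% and 4.95%. Cycling cells held a median of 84.9% of the counts of each of these 21 genes, from 59.3% for Cenpa to 92.4% for Nusap1. For S genes the median was 64.9%, from 43.2% for Mcm4 to 86.6% for Rrm2. Pcna, the clamp that holds DNA polymerase on its template and also serves DNA repair, was detected in 31.8% of all cells, and 44.4% of its counts lay in cycling cells. Apart from the pair in the rule, detection in cycling cells ran from 17.2% for Cdc6, which loads the replicative helicase, to 85.1% for Stmn1, which destabilises microtubules.

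Cycling cells were spread over all 17 types, and immature cells led the order. Fcnb-led immature neutrophils, named for the granule lectin gene Fcnb, had the highest mean share, 69.7% ± 8.32 (SD, n = 4 mice). The shares in the 4 mice were 68.8%, 80.7%, 69.0% and 60.5% of 48, 83, 187 and 119 cells. Haematopoietic progenitors followed at 50%, 58.6%, 63.5% and 37.2% of 16, 29, 52 and 43 cells. Both groups of mice overlapped in each of these types. Within the progenitors, the cluster led by Mpo and Elane, genes of neutrophil granule proteins, had 70.7% of 75 cells cycling. The cluster led by Angpt1 and Gata2 had 32.3% of 65. Median counts per cell in these clusters were 53248 and 13003, and the part of depth in this difference was not tested. Erythroid cells had 29.2%, 41.2%, 38.5% and 15.4%, on 17 to 26 cells per mouse. B cell precursors had 41.2%, 11.8%, 19.0% and 30.4% of 51, 34, 200 and 115 cells.

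**Figure D1:**
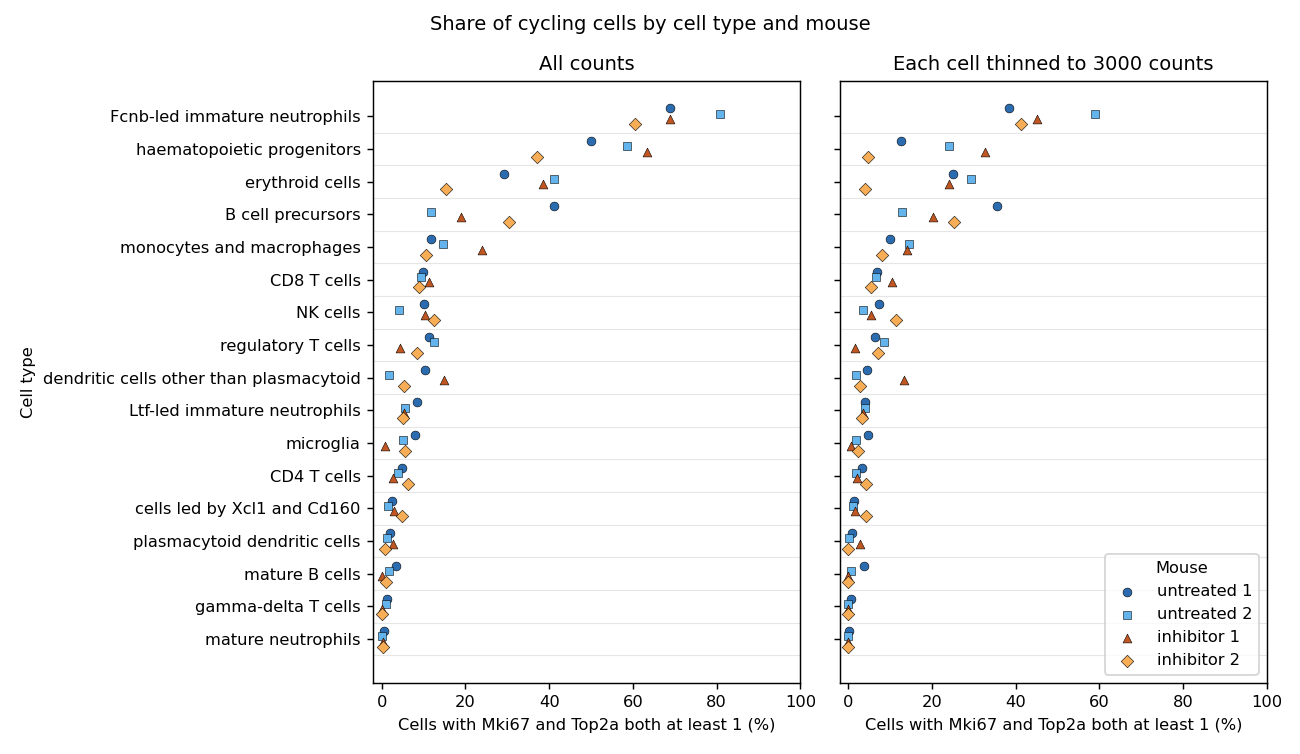
Share of cells with Mki67 and Top2a both at least 1 (%, x axis) for each cell type (y axis), with 1 marker per mouse, from all counts (left) and after cells with at least 3000 counts were thinned to that number (right). Fcnb-led immature neutrophils lie between 60.5% and 80.7% on the left and between 38.3% and 59.0% on the right, and mature neutrophils reach at most 0.468% on the left and 0.123% on the right.

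Next in the order came monocytes and macrophages, with a mean of 15.3% ± 6.09 (SD, n = 4) and shares of 11.8%, 14.8%, 24.1% and 10.6%. Their cells that did not pass the rule had few counts (median 4161.5) and a median of 11.3% mitochondrial counts, against 4.0% in the cycling ones, and the part of damaged cells in this share was not tested. CD8 T cells had 9.83%, 9.38%, 11.3% and 8.98% and varied least for their mean (9.87% ± 1.02). NK cells had 10.1%, 4.03%, 10.3% and 12.6%, and regulatory T cells, the Foxp3-expressing cells that restrain immune responses, had 11.3%, 12.5%, 4.29% and 8.45%. Dendritic cells other than plasmacytoid had 10.4%, 1.77%, 15.0% and 5.41%. The 38 cells among them led by Ccl22, Fscn1 and Ccr7, genes of migratory dendritic cells, held 0 cycling cells, which allows a share of up to 3 of 38. CD4 T cells, the largest lymphocyte type, had 4.81%, 4.0%, 2.82% and 6.20%.

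The observed share differed between the clusters of CD4 T cells. The cluster led by Cxcr6 and Ifng, the latter the gene of interferon gamma, had 6.25% of 2447 cells cycling. The cluster led by Tcf7 and Il7r, genes of resting and memory T cells, had 2.13% of 1928. The cluster led by Ifit1 and Gzmk, with other interferon-induced genes, had 6.30% of 524. No T cell marker was among the 10 leading genes of that cluster, and its name rests on Cd4 in 63.4% and Cd8a in 2.29% of its cells. Median counts per cell were 9171, 4503 and 8127 in the order given, and the part of depth in these shares was not tested. These clusters were formed from the same cells, and their shares are a description with no test.

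Microglia, the resident macrophages of the central nervous system, had 7.84%, 5.07%, 0.880% and 5.53% of 561, 296, 341 and 434 cells. Inhibitor mouse 1, with 3 cycling microglia of 341, stands below the other three. P2ry12, a defining microglial gene, was detected in 76.7% of cycling and 81.6% of other microglia, and the T cell gene Cd3e in 33.7% and 23.5%. Cycling microglia held a median of 11 of the 38 other members, against 20 over all cycling cells. The part of mixed droplets or free RNA in that share was not tested.

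Ltf-led immature neutrophils, a later stage marked by the granule protein lactoferrin, had 8.50%, 5.62%, 5.29% and 4.99%, with 79 cycling cells in all. The remaining types held few cycling cells. The cells led by Xcl1 and Cd160 had 2.39%, 1.57%, 3.03% and 4.81%, plasmacytoid dendritic cells 1.96%, 1.17%, 2.74% and 0.714%, and mature B cells 3.37%, 1.70%, 0% and 1.05%. Gamma-delta T cells had 1.31%, 0.976%, 0% and 0%, that is 4 cycling cells in all. A count of 0 of 105 mature B cells allows a share of up to 2.86%, and 0 of 74 and 0 of 51 gamma-delta T cells allow up to 4.05% and 5.88%. With all types ordered by their mean share, which puts microglia and CD4 T cells after Ltf-led cells, in no pair of neighbours did the lowest mouse of the upper type exceed the highest mouse of the lower type.

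Mature neutrophils give the background of the rule, because they have left the cycle. Of 5375, 14 passed: 0.468%, 0.164%, 0.198% and 0.289% in the 4 mice. Those 14 held a median of 3 of the 38 other members. With or without the other gene, Mki67 was detected in 4.60% of mature neutrophils and Top2a in 2.79%. A single gene at 1 count is therefore not read here as cycling. The median depth of mature neutrophils was 7749 counts, close to that of CD4 T cells (7025) and below that of Fcnb-led cells (24993). Gamma-delta T cells, at 7039 counts and a mean share of 0.571% ± 0.673 (SD, n = 4), overlapped the background.

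Thinning cells to 3000 counts left out the shallower ones, 293, 332, 327 and 309 in the 4 mice. Fcnb-led cells remained first. Their shares became 38.3%, 59.0%, 45.2% and 41.2%, and those of mature neutrophils 0.123%, 0%, 0.0417% and 0.0750%. Progenitors, the deepest cells, fell to 12.5%, 24.1%, 32.7% and 4.65%, and B cell precursors had 35.6%, 12.9%, 20.3% and 25.3% of the 45, 31, 172 and 95 that were deep enough. Of the monocytes and macrophages 36 of 127, 13 of 61, 23 of 108 and 43 of 141 were left out.

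Fcnb-led cells made up 2.27% of all cells and 24.8% of cycling cells. CD4 T cells made up 25.5% of all cells and 18.7% of cycling cells, and mature neutrophils 27.9% and 1.15%. The source of the cycling cells differed between mice. Fcnb-led cells supplied 11.5%, 25.9%, 38.4% and 21.8% of each mouse's cycling cells, CD4 T cells 19.8%, 26.2%, 5.65% and 25.1%, and microglia 15.3%, 5.79%, 0.893% and 7.25%. Inhibitor mouse 1 had the largest part from Fcnb-led cells and the smallest from CD4 T cells and microglia.

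By role, the members' levels differed between types, and not always in the order of the shares. Levels are given as CPM, a gene's counts scaled to the total counts of the same cells in a mouse. They are not corrected for gene length and are compared between types and mice, not between genes. Fewer cycling cells and less RNA per cycling cell cannot be told apart in such sums. Over all cells, Mki67 had 166, 153, 192 and 168 CPM and Top2a 117, 109, 128 and 119.9 CPM. In Fcnb-led cells Mki67 reached 729.8, 908, 841 and 849.6 CPM, and in mature neutrophils 16.0, 7.33, 10.2 and 7.29 CPM. B cell precursors spanned 200.1 to 1159.8 CPM for Mki67, with untreated mouse 2, which had 34 such cells, lowest. Mature B cells of untreated mouse 1 had 287 CPM against 12.4 to 39.0 CPM in the other three.

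Of the mitotic cyclins and their kinase, Cdk1 drives entry into mitosis and Ccna2 encodes cyclin A2, which partners it and the S-phase kinase. Over all cells Cdk1 had 36.2, 33.0, 37.1 and 35.3 CPM and Ccna2 33.0, 31.3, 37.0 and 36.8 CPM. Cdk1 had 139, 211, 183 and 158 CPM in Fcnb-led cells and 30.6, 15.0, 8.61 and 41.1 CPM in CD4 T cells. The lowest Fcnb-led mouse was above the highest CD4 mouse. Of the kinetochore and checkpoint genes, Cenpa encodes the histone that marks centromeres and Birc5 encodes survivin of the chromosomal passenger complex. Their levels over all cells were 76.8, 79.9, 91.7 and 71.9 CPM for Cenpa and 67.0, 58.4, 68.5 and 62.7 CPM for Birc5. Cenpa was also the G2/M gene with the most counts outside cycling cells, and it was detected in 9.41% of mature neutrophils.

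Of the spindle genes, Tpx2, which activates Aurora A at spindle microtubules, had 39.5, 41.5, 49.1 and 41.3 CPM over all cells. Nusap1, which bundles those microtubules, had 28.9, 28.6, 36.8 and 29.7 CPM. The cytokinesis genes include Kif23, a motor of the central spindle, at 30.2, 25.6, 42.2 and 30.6 CPM, and Prc1, which crosslinks that spindle, at 40.7, 36.4, 42.7 and 37.2 CPM. Kif23 and Aurka were the G2/M genes with a higher share in mature neutrophils than in all non-cycling cells together. Kif23 was detected in 8.11% and 5.19% and Aurka, a mitotic kinase, in 1.25% and 1.13%. The level of Kif23 in mature neutrophils was 26.3, 12.5, 30 and 26.5 CPM, against 18.7, 17.4, 16.8 and 25.5 CPM in CD4 T cells. The anaphase-promoting complex genes Ube2c and Cdc20, whose products mark securin and cyclin B for destruction, had 86.1, 93.3, 114 and 82.2 CPM and 23.8, 19.0, 27.5 and 18.8 CPM over all cells. Inhibitor mouse 1 was highest for all of Tpx2, Nusap1, Kif23, Prc1, Ube2c and Cdc20.

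The MCM genes encode the ring of the replicative helicase. Over all cells Mcm5 had 49.8, 44.4, 42.6 and 54.9 CPM and Mcm7 50.6, 49.8, 46.6 and 54.2 CPM. Progenitors had 248, 224, 214 and 228 CPM of Mcm5, above the 154, 126, 155 and 109 CPM of Fcnb-led cells in every mouse, although fewer of them were cycling. Pcna had 208, 190.2, 136 and 206 CPM over all cells. Rrm2, a subunit of the enzyme that makes deoxynucleotides, had 53.2, 46.8, 46.0 and 47.7 CPM. Gmnn, which blocks a second round of helicase loading, had 34.9, 33.6, 30.6 and 36.8 CPM, and Stmn1 had 175, 137, 176 and 202 CPM. Inhibitor mouse 1, highest for the mitotic genes above, was lowest for Mcm5, Mcm7, Pcna, Rrm2 and Gmnn.

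**Figure D2:**
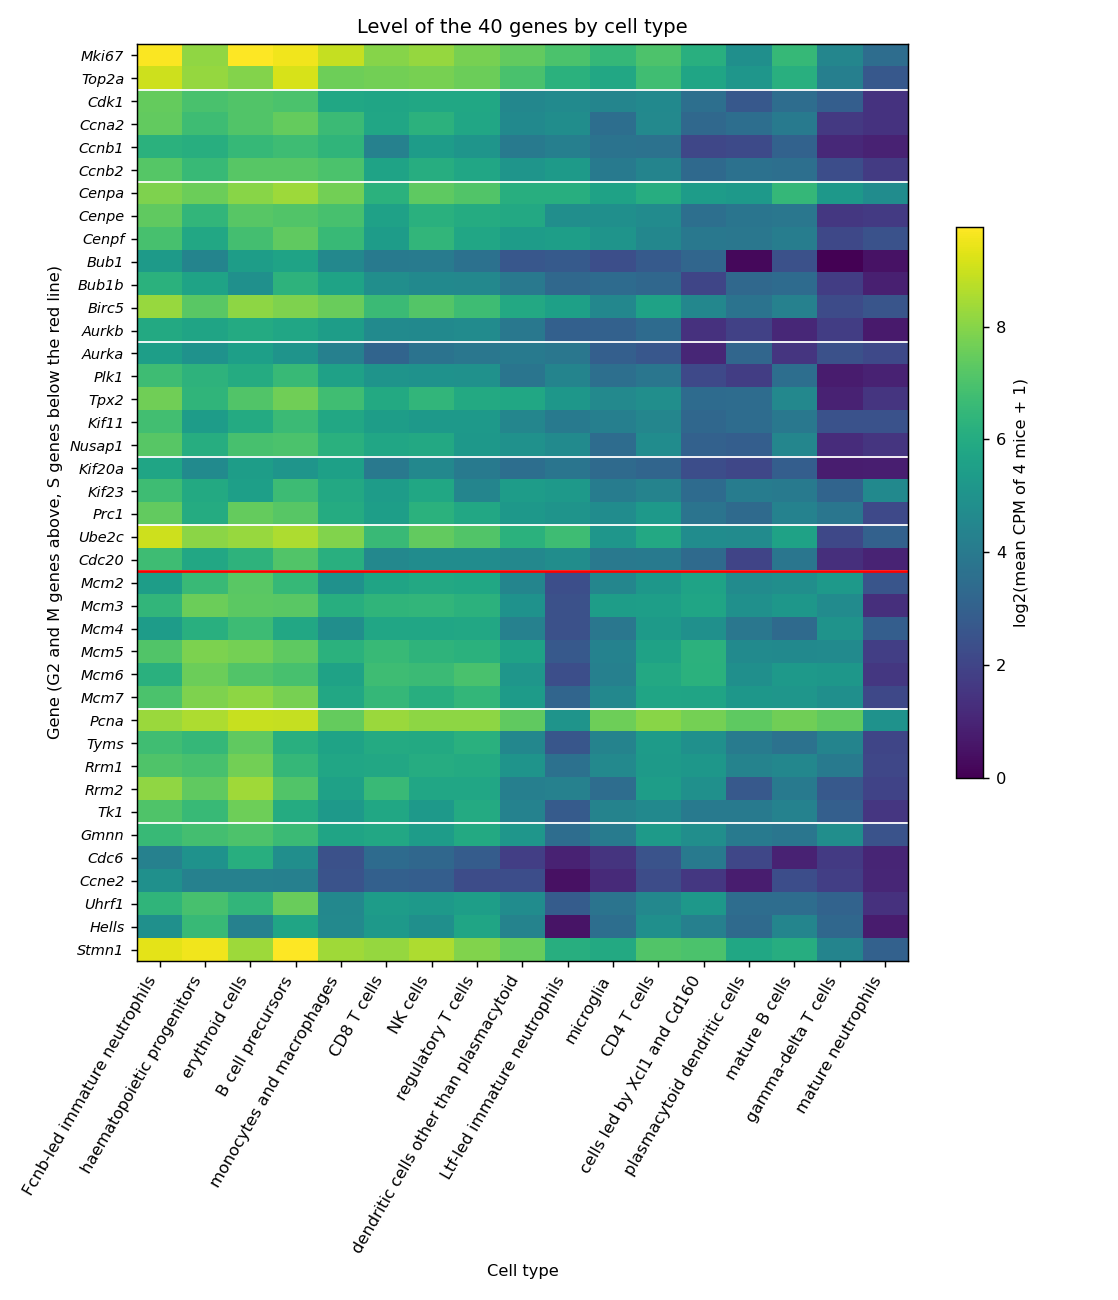
Level of each of the 40 genes (rows, grouped by role, G2/M genes above the red line and S genes below) in each of 17 cell types (columns, ordered by cycling share), as log2 of the mean CPM of 4 mice plus 1. The MCM rows are darkest in Ltf-led immature neutrophils and mature neutrophils, while the Ube2c row is brighter in Ltf-led cells than in CD4 T cells.

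The balance of the 2 groups changed along the neutrophil lineage. In Fcnb-led cells the 23 G2/M genes summed to 3979, 5152, 4642 and 4100.0 CPM and the 17 S genes to 2633, 2167, 2406 and 2372 CPM. The ratio of the sums was 1.89 ± 0.37 (SD, n = 4). In Ltf-led cells the G2/M sums were 1249, 991, 576 and 545 CPM and the S sums 243, 208, 145 and 168 CPM, with ratios of 5.15, 4.77, 3.98 and 3.23 (4.28 ± 0.85). Each Ltf-led mouse lay above each Fcnb-led mouse. In mature neutrophils the sums were 83.9 to 125 CPM and 74.0 to 81.9 CPM, with a ratio of 1.41 ± 0.21, at the background of the rule. The comparison of these stages was added to the description after their values were seen and has no test.

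Among cycling cells alone, and without Mki67 and Top2a, which the rule requires, the ratio was 4.15 ± 0.70 in Ltf-led cells and 1.34 ± 0.31 in Fcnb-led cells (SD, n = 4 mice). With both genes it was 5.46 ± 0.87 and 1.92 ± 0.42, values that the rule itself raises. Of the 79 cycling Ltf-led cells, 88.6% held Ube2c, 82.3% Cenpa and 65.8% Cdc20. Their Mcm2, Mcm3, Mcm4, Mcm5, Mcm6 and Mcm7 were detected in 6.33%, 16.5%, 3.80%, 25.3%, 10.1% and 29.1%. In the 301 cycling Fcnb-led cells the same 6 genes were detected in 32.6%, 39.9%, 34.6%, 60.5%, 42.2% and 64.8%. In the 227 cycling CD4 T cells, which had fewer counts per cell (median 15741 against 21153 in Ltf-led cells), they were detected in 37.0%, 44.9%, 37.0%, 48.0%, 46.3% and 47.6%. These shares pool the cells of 4 mice and have no test of the difference. Pcna, at 33.1, 38, 27.8 and 29.4 CPM in Ltf-led cells, overlapped mature neutrophils at 29.9, 30.7, 26.2 and 34.3 CPM.

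Lymphocyte types lay on both sides of equal sums. The ratio was 0.78 ± 0.10 in CD4 T cells, 0.90 ± 0.13 in CD8 T cells, 0.31 ± 0.07 in gamma-delta T cells, and 0.41 ± 0.12 in the cells led by Xcl1 and Cd160 (SD, n = 4). It was 1.04 ± 0.18 in regulatory T cells, 1.39 ± 0.78 in NK cells, 1.55 ± 0.37 in B cell precursors and 0.79 ± 0.70 in mature B cells. In cycling CD4 T cells without the genes of the rule it was 0.89 ± 0.17. Microglia had 1.04 ± 0.06 and progenitors 0.80 ± 0.27. In 3 types inhibitor mouse 1 stood apart: its ratio was 2.55 in NK cells, 2.54 in dendritic cells other than plasmacytoid and 1.18 in plasmacytoid cells. The other three mice lay between 0.903 and 1.12, 0.755 and 0.973, and 0.299 and 0.463. In monocytes and macrophages the ratios were 1.12, 4.96, 3.22 and 1.59, the widest range of these types.

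**Figure D3:**
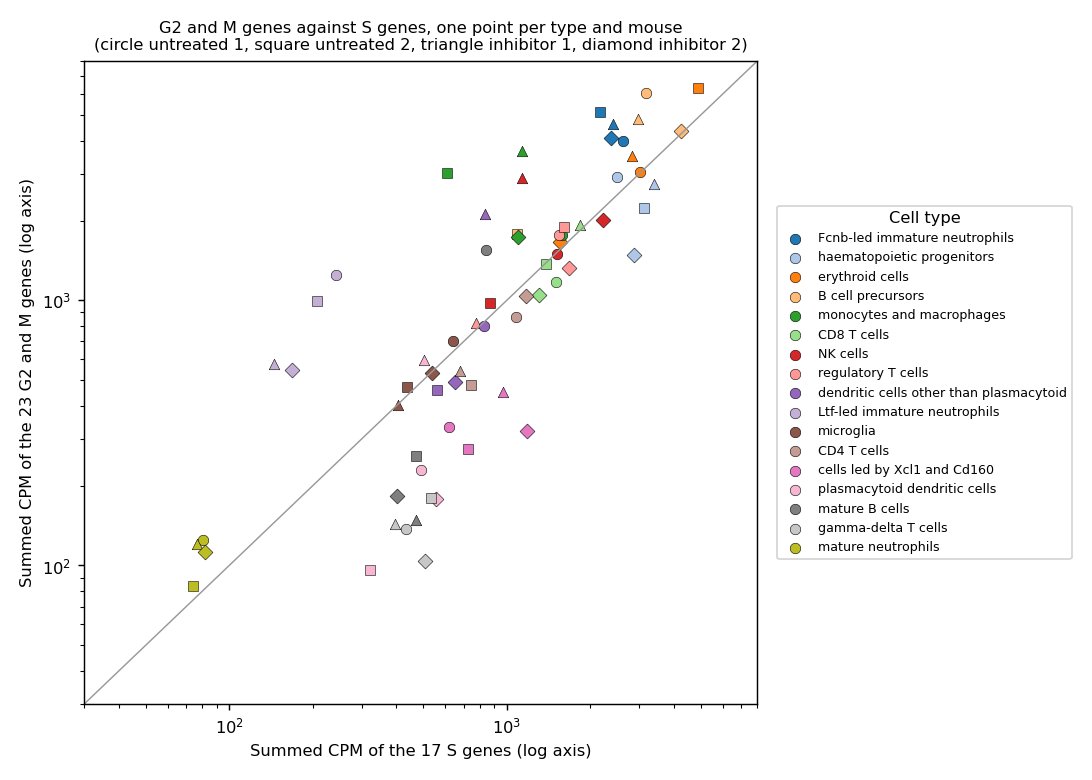
Summed CPM of the 23 G2/M genes (y axis, log scale) against summed CPM of the 17 S genes (x axis, log scale), with 1 point per cell type (colour) and mouse (shape), and the line of equal sums. The 4 points of Ltf-led immature neutrophils lie far above the line, with ratios from 3.23 to 5.15, and the 4 points of gamma-delta T cells lie below it.

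Differences between types of the same mice were tested on counts summed per type and mouse, with the mouse as a block (edgeR's quasi-likelihood test, Benjamini-Hochberg adjustment over all genes, threshold 0.05). Of all genes tested, 4.04% were called higher in regulatory T cells than in CD4 T cells, and of the 40 members 14 were called higher and none lower. They were 8 G2/M and 6 S genes, with a median log2 fold of 0.79 over all 40 against -0.03 over all genes. Mcm6 had 102, 127, 126 and 138 CPM in regulatory T cells and 65.6, 48.8, 57.5 and 63.5 CPM in CD4 T cells, with no overlap (log2 fold 1.00 ± 0.15 SE, adjusted p = 0.00251). Ccnb2, cyclin B2, followed at 1.39 ± 0.23 (adjusted p = 0.00421), Stmn1 at 0.79 ± 0.14 (0.00606), Cenpa at 0.95 ± 0.18 (0.00742) and Cdk1 at 1.26 ± 0.27 (0.0165). Of the kinetochore and checkpoint genes, 5 of 7 passed. None of the 5 spindle genes passed, with folds from 0.37 for Nusap1 to 1.32 for Aurka, and the difference between these roles was not tested. Mki67 and Top2a did not pass, at 0.70 ± 0.23 (adjusted p = 0.104) and 0.75 ± 0.24 (0.0866). Of the 80 further cell cycle genes, 78 were tested, and 10 were called higher and 1 lower. Those with the largest changes were Ect2 (1.64), Sgo1 (1.55) and Nuf2 (1.43), which act in cytokinesis, centromere cohesion and the kinetochore. The count rested on single mice: it was 1 without untreated mouse 1, 3 without untreated mouse 2, 11 without inhibitor mouse 2 and 24 without inhibitor mouse 1. It was 3 with cells thinned to 3000 counts, 9 without the mouse block and 22 by DESeq2.

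CD8 T cells were called higher than CD4 T cells for 7 of the 40 members, where 2.28% of all genes were called higher. All 40 folds were above 0, with a median of 0.98 against -0.03 over all genes. Mki67 rose by 1.01 ± 0.24 on the log2 scale (adjusted p = 0.0319), from levels of 137, 81.2, 128 and 169.9 CPM in CD4 T cells to 266, 282, 311 and 147 CPM in CD8 T cells. The CD8 level exceeded the CD4 level in 3 of the 4 mice and not in inhibitor mouse 2. Rrm2 had the lowest adjusted p (0.00715), with 1.34 ± 0.24, and its levels of 80 to 124 CPM lay above all 4 CD4 values, 21.9 to 64.5 CPM. Cdk1, Birc5, Mcm5, Mcm6 and Stmn1 also passed. Of 77 further cell cycle genes tested, 6 were called higher and 1 lower, led by the replication genes Mcm10 (1.98) and Pole (1.60) and the cytokinesis gene Racgap1 (1.57). The count of members was 1 without untreated mouse 2, 2 without inhibitor mouse 1, 8 without untreated mouse 1 and 15 without inhibitor mouse 2. It was 4 with thinned cells and 16 by DESeq2.

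Gamma-delta T cells were called lower than CD4 T cells for 16 of 39 members tested, where 1.73% of all genes were called lower. They were 12 of 22 G2/M genes and 4 of 17 S genes, with median log2 folds of -2.81 and -0.90 (all genes -0.07). Mki67 had 22.4, 35.1, 9.49 and 17.9 CPM and lay below every CD4 value, with a log2 fold of -2.41 ± 0.34 (adjusted p = 0.00108). Birc5 fell by 3.55 ± 0.41 on the log2 scale (adjusted p = 0.000207) and Ube2c fell by 3.69 ± 0.49 (0.000693). Pcna fell by 0.59 ± 0.14 (0.0367), the smallest of the called changes. None of the 6 MCM genes passed, with folds from -0.97 for Mcm5 to 0.05 for Mcm2. Of 70 further genes tested, 7 were called lower and 1 higher, led by Cenpm (-3.44), Hmmr (-3.29) and Cdca3 (-3.04). The count of members was 8 without untreated mouse 1 and 8 without inhibitor mouse 2, 13 and 15 without the other two mice, and 6 with thinned cells.

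NK cells did not differ from CD8 T cells by this test. None of 40 members was called, where 2.96% of all genes were called higher and 2.8% lower. At an unadjusted p under 0.05, 3 were higher and 1 was lower, and DESeq2 called 1 in each direction. The median fold was 0.00, at 0.27 for G2/M genes and -0.19 for S genes. The lowest adjusted p was 0.0884, for Cenpf (0.88). Levels of Mki67 in NK cells were 252, 167, 381 and 396 CPM and overlapped those of CD8 T cells.

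Plasmacytoid dendritic cells, the main makers of type I interferon, were called lower than other dendritic cells for 20 of 36 members tested, where 14.4% of all genes were called lower. They were 17 of 21 G2/M genes and 3 of 15 S genes (Mcm5, Gmnn and Stmn1), with medians of -2.20 and -0.87 against 0.04 over all genes. Mki67 had 32.0, 9.47, 45.4 and 25.2 CPM against 101, 112, 383 and 79.8 CPM, with no overlap (log2 fold -2.61 ± 0.32, adjusted p = 0.000139). Tpx2 fell by 2.77 ± 0.32 (adjusted p = 8.98e-05) and Stmn1 fell by 1.97 ± 0.26 (0.000214). Of 67 further genes, 20 were called lower and 2 higher, led by Ckap2l (-4.01), the CDK inhibitor gene Cdkn1a (-3.66) and Cdca3 (-3.11). With thinned cells the count of members was 5.

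Microglia were called lower than monocytes and macrophages for 30 of 38 members tested, where 11.2% of all genes were called lower. They were 22 of 23 G2/M genes and 8 of 15 S genes, with medians of -2.20 and -1.15 against 0.12 over all genes. The mitochondrial share given above for monocytes and macrophages was 3.64% in microglia that did not pass the rule, and its part in this difference was not tested. Stmn1 had 92.3, 42.7, 39.5 and 66.6 CPM in microglia and 429, 237, 362 and 290.0 CPM in monocytes and macrophages (log2 fold -2.50 ± 0.25, adjusted p = 6.99e-06). Ccna2 fell by 3.19 ± 0.37 (adjusted p = 2.77e-05) and Mki67 fell by 2.46 ± 0.36 (0.000214). Pcna was the exception among S genes in sign, at 0.22 with an adjusted p of 0.536. Of 75 further genes, 34 were called lower and 1 higher, among the lower ones Cdkn3 (-3.00) and Cks1b (-2.70). With thinned cells the count of members was 15.

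**Figure D4:**
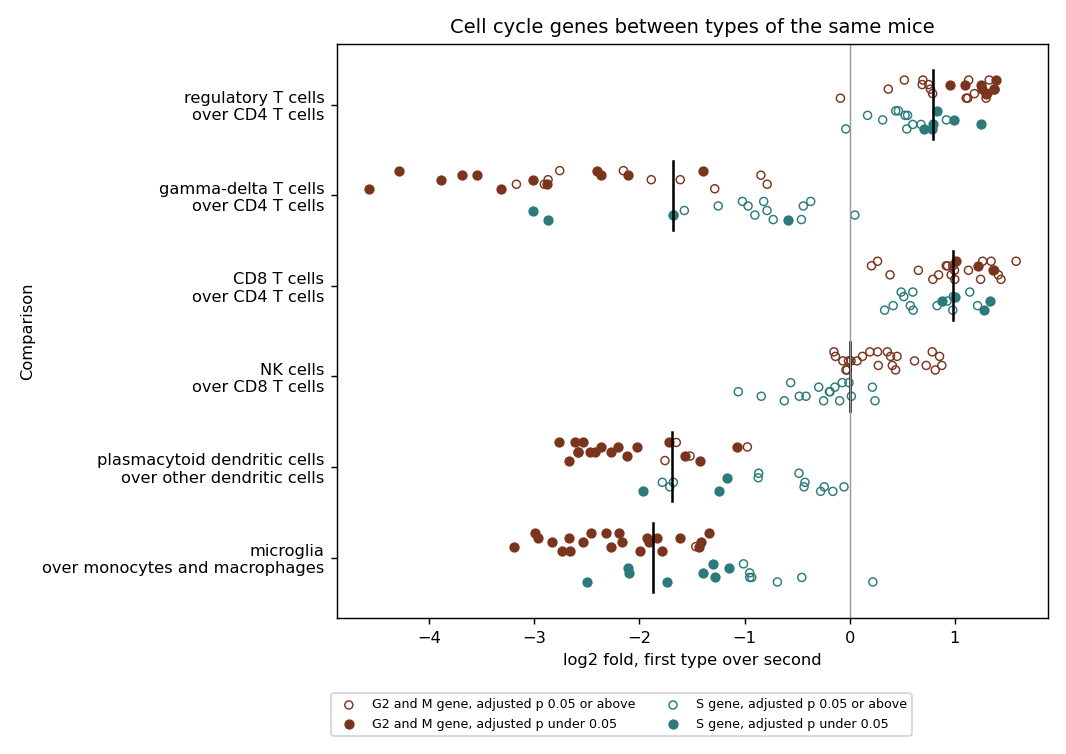
Log2 fold of each member between types of the same mice (x axis) for 6 comparisons (y axis), with G2/M and S genes in separate rows of points, filled where the adjusted p was under 0.05, and a black line at the median. In the comparisons of gamma-delta T cells, plasmacytoid dendritic cells and microglia the G2/M points lie further below 0 than the S points, with medians of -2.81 against -0.90, -2.20 against -0.87 and -2.20 against -1.15.

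The inhibitor was compared with no treatment over the mice, with 2 in each group. The share of cycling cells over all cells was 6.67% and 5.73% in untreated mice and 6.17% and 6.68% in treated mice. The means were 6.20% ± 0.67 and 6.42% ± 0.37 (SD), and the difference of 0.224 percentage points was within the spread between mice (exact permutation test, two-sided, p = 0.667; the smallest p this design allows is 0.33). The mix of types differed between the mice: Fcnb-led cells made up 1.11%, 1.84%, 3.43% and 2.40% of cells, Ltf-led cells 3.54%, 3.94%, 13.2% and 7.29%, and mature neutrophils 19.8%, 13.5%, 46.3% and 28.0%. At a common mix of types the shares of cycling cells were 7.24%, 5.91%, 5.65% and 6.29%. With the mix of each mouse and common shares within types they were 5.76%, 5.94%, 6.68% and 6.72%, higher in both treated mice (exact permutation p = 0.33, the smallest possible).

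Within types, the share was tested on the number of cycling cells in 12 types with at least 30 cells in each mouse and at least 10 cycling cells in all (edgeR's quasi-likelihood test). None of the 12 passed, 0 had an unadjusted p under 0.05, and the smallest adjusted p was 0.786. The log2 change was -0.21 ± 0.30 (SE) in Fcnb-led cells, 0.07 ± 0.42 in CD4 T cells and 0.07 ± 0.64 in CD8 T cells. It was -0.98 ± 0.78 in microglia, -0.82 ± 0.68 in regulatory T cells and 0.68 ± 0.70 in NK cells. Single mice moved these values: microglia had -2.86 without inhibitor mouse 2 (adjusted p = 0.112) and -0.26 without inhibitor mouse 1. Regulatory T cells had -1.46 and -0.49 without the same mice, and NK cells 1.503 without untreated mouse 1 and 0.21 without untreated mouse 2. Over the 12 types the standard errors ran from 0.30 to 0.86.

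None of the 40 members was called between treated and untreated mice over all cells, where 0.0% of 21146 genes were called. At an unadjusted p under 0.05, 6 members were higher, where 6.78% of all genes were, and none lower. Among them were Aurkb, the kinase of the chromosomal passenger complex (log2 fold 0.64 ± 0.19, adjusted p = 0.473), Ccne2, a G1/S cyclin (0.86 ± 0.26, 0.473), and Stmn1 (0.48 ± 0.18, 0.484). Folds were above 0 for 38 of 40, with a median of 0.34 against -0.02 over all genes. With counts scaled by library size alone, the median of all genes moved to -0.22 and that of the members to 0.12, with 30 of 40 above 0. With a mouse left out, which leaves a group with a single mouse, the members' median ran from 0.17 to 0.52.

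No member was called in any of the 15 types tested on its own, of which 12 had 0.0% of genes called. In CD8 T cells 0.0102% of genes were called, in NK cells 0.0101% and in mature B cells 0.0239%, and no member was among them. DESeq2 called 2 members, both in Ltf-led cells. None of the 80 further cell cycle genes was called either. At an unadjusted p under 0.05, members leaned one way in some types. In Ltf-led cells 22 of 37 were lower, where 3.32% of all genes were. They were 19 of 23 G2/M genes and 3 of 14 S genes. Ube2c had 154 and 149.7 CPM without the inhibitor and 68.9 and 53.6 CPM with it, a log2 fold of -1.32 ± 0.17 and an adjusted p of 0.273. Mki67 had 228 and 107 against 91.0 and 77.7 CPM (-0.98 ± 0.28, 0.674). The groups did not overlap for either gene. When a mouse was left out, which leaves a group with a single mouse, the members' median ran from -0.88 to -0.75. With cell cycle genes left in the clustering the members' median of -0.87 became -0.25.

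In NK cells 13 of 39 members were higher at an unadjusted p under 0.05, where 2.08% of all genes were, with a median of 0.74. That median ran from 0.45 to 1.23 with a mouse left out. In regulatory T cells 8 of 39 were lower, where 2.11% of all genes were, with a median of -0.68. With a mouse left out the median in these cells ran from -1.23 to -0.24. Inhibitor mouse 1 had 58 NK cells and 70 regulatory T cells, the fewest of the 4 mice in each. Fcnb-led cells, the most active type, had a median of 0.01, CD4 T cells 0.22 and mature neutrophils 0.04. The medians in the other types ran from -0.50 in mature B cells, with 18 members tested, to 0.71 in plasmacytoid dendritic cells, with 28 tested.

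**Figure D5:**
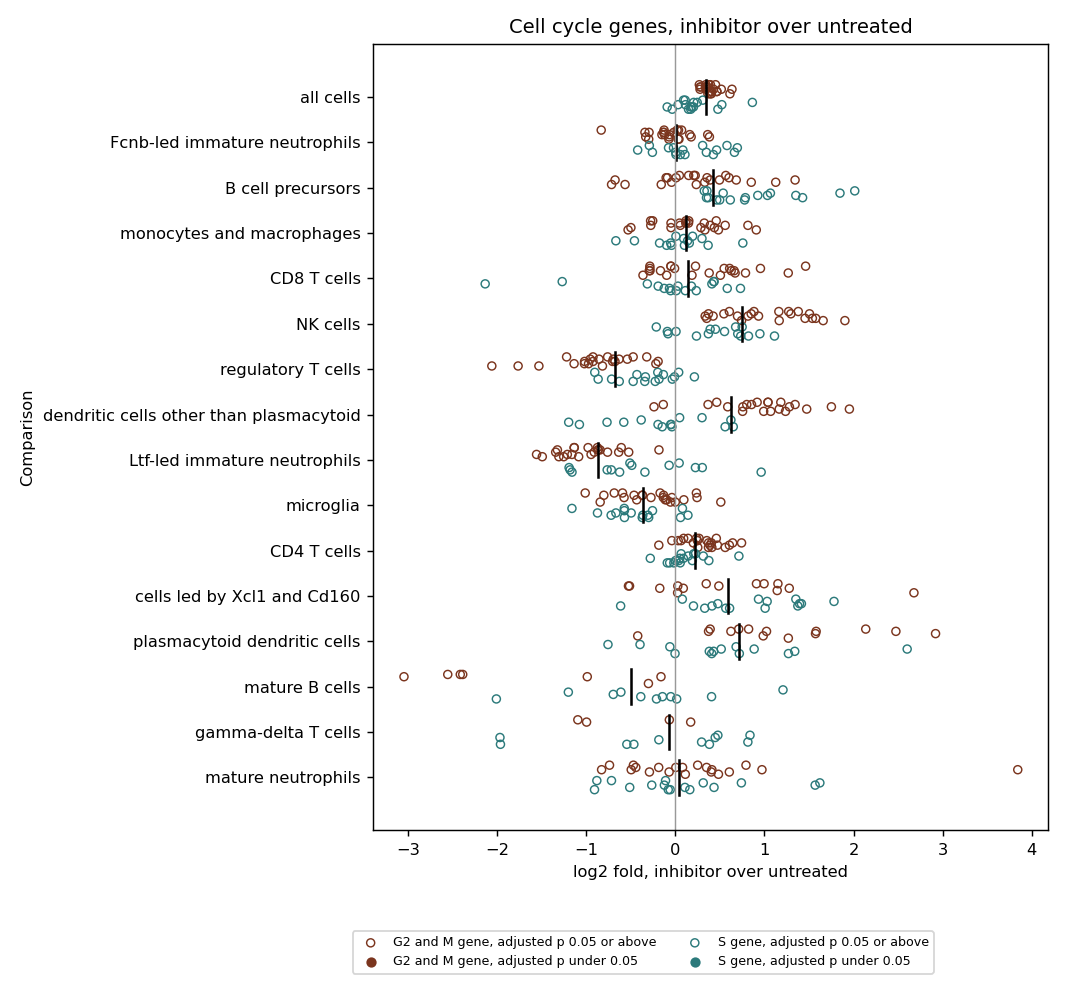
Log2 fold of each tested member, inhibitor over untreated (x axis), over all cells and in 15 cell types (y axis), with G2/M and S genes in separate rows of points and a black line at the median. No point is filled, since no adjusted p was under 0.05, and the medians run from -0.87 in Ltf-led immature neutrophils to 0.74 in NK cells.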

How the data were processed

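Single CD45+ cells of 4 mice were pooled by hashtag on 1 BD Rhapsody run (about 28678 cells loaded), and cDNA was amplified by TAS-Seq, per the labels' protocols. The authors deposited whole-number counts per gene and cell, with no normalization. GRCm38 is the build named, per the submitters' processing notes. An error correction named DBEC and a cell threshold appear in the name of the deposited table. No source used here names the aligner or the counter, or says if counts are of molecules or reads. No member shows a DBEC floor: each has nonzero values below 4.

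Mouse and group came from the hashtag in each column's name. Of 25461 columns, 3943 with more than 1 hashtag were left out. Of 21518 others, 1014 with over 20% mitochondrial counts were removed (minimum 200 genes). A further 1261 (6.15%) were removed for a score of 0.24 or more, the share of hashtag doublets among the 50 nearest neighbours; this took 9.54% of cycling and 5.91% of other cells. No cell barcode occurred more than once. Cells were scaled to 10000 counts and clustered (2000 variable genes without 372 cell cycle genes, 40 components, 20 neighbours, Leiden resolution 1.0; scikit-learn 1.9.0, leidenalg 0.10.2), giving 23 clusters. These were named from listed markers, with at least 3 detected in 25% of cells. The split of immature neutrophils, the name of the Xcl1 and Cd160 cluster and the need for a subtype's own gene among T cells were set after seeing the clusters.

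Counts were summed per mouse, or per type and mouse, for types with at least 30 cells in each mouse, and tested with edgeR 4.0.16 (R 4.3.3; TMM, filterByExpr, quasi-likelihood test, Benjamini-Hochberg over all genes of a fit). The number of cycling cells per type was tested likewise, with the log number of cells as offset. Exact permutation tests used scipy 1.17.1. Tested on simulated data with 200 changed genes (log2 change 2), edgeR recovered 99.5% over all cells (5.24% of calls false) and 100% between regulatory and CD4 T cells (3.85% false). The changed genes were drawn from those at higher levels, and all genes were given a single common dispersion. These figures therefore do not give the recovery of smaller changes or of genes at low levels. DESeq2 1.42.0, library-size scaling, a minimum of 1 count, thinning to 3000 counts, other cycling rules, kept doublets, clusters with cell cycle genes and each mouse left out were the alternatives. Intervals and limits for 0 cover counting error only. The mice are separate animals on 1 run, so the spread is biological and technical.

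Values in every mouse are given for Mki67, Top2a and, in each role, the 2 members with the most counts, and in the tests for members past the threshold. Members and lists were chosen with earlier results of these data known. A further cell cycle gene among those with the largest changes is not reported here.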

Additional observations from a re-analysis of the deposited data

Results flagged for a closer look

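In 6 of 17 types both treated mice had a cycling share on the same side of both untreated mice, in differing directions between types. The difference between types was not tested, and with 2 mice against 2 the smallest exact permutation p for a single type is 0.33. That is also the share of types expected to lie apart if the groups do not differ, and 6 of 17 is near it. The share was higher with the inhibitor in NK cells, by 4.422 percentage points (7.04% to 11.5%). It was also higher in the cells led by Xcl1 and Cd160, with 16 cycling cells in all, by 1.938 points (1.98% to 3.92%). It was lower in regulatory T cells, at -5.499 points (11.9% to 6.37%), and in Ltf-led immature neutrophils, at -1.918 points (7.06% to 5.14%). It was also lower in mature B cells, at -2.011 points (2.54% to 0.526%), and in gamma-delta T cells, at -1.141 points (1.14% to 0%), which rest on 7 and 4 cycling cells. After thinning to 3000 counts the groups overlapped in NK cells (7.47%, 3.57%, 5.56% and 11.5%) and in regulatory T cells (6.49%, 8.61%, 1.67% and 7.14%), and gamma-delta T cells had 0.694% in 1 untreated mouse and 0% in the other three. In Ltf-led cells they stayed apart, at 3.97%, 4.02%, 3.50% and 3.35%. None of these types passed the test of its own share where that test was run.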

How the results depend on the processing

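The number of cells limits the shares of the rare types. Of the values recomputed under each alternative, 524 were classed as the same, 81 as moved and 15 as reversed. A share change within a type was the same if its sign and its side of the threshold held, whatever its size. Medians and shares over all cells were the same if they moved by less than the spread between mice. A median was classed as reversed only where the main fit called members, and no fit of inhibitor over untreated did. Changes of sign in those medians, and in the shares over all cells, are therefore not among the 15. Counts of members called were allowed a limited change. The cause of the changes was not tested, save that leaving out a mouse leaves 3 and a filter of at least 1 count tests more genes. The labels number the mice within each group without saying that a number is shared. Same-numbered mice correlated at 0.0233 over 21146 genes. With the replicate block, 1 member was called in Ltf-led cells against 0, and the log2 change of the cycling share in CD4 T cells was -0.0361 against 0.07. Without the block, 9 members were called in regulatory over CD4 T cells against 14.

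Shares of cycling cells, inhibitor against untreated: counting cells with Mki67 or Top2a gave a difference of -1.57 percentage points over all cells and a log2 change of -0.0072 in CD8 T cells. Calling cycling cells by at least 10 of the 38 other members gave 0.109 in B cell precursors. Keeping the doublet calls gave -0.0926 in CD8 T cells, keeping cell cycle genes in the clustering gave -0.420 in dendritic cells other than plasmacytoid, and thinning gave -0.0978 in monocytes and macrophages. With a mouse left out the log2 changes ran from -0.746 to 1.05 in B cell precursors, -0.630 to 0.505 in CD4 T cells and -0.0992 to 0.229 in CD8 T cells. They ran from -0.237 to 2.33 in dendritic cells other than plasmacytoid, -0.969 to 0.503 in mature neutrophils and -0.293 to 0.878 in monocytes and macrophages. Without a change of sign they ran from -2.86 to -0.259 in microglia, -1.46 to -0.490 in regulatory T cells, 0.209 to 1.503 in NK cells, -0.7195 to -0.125 in Ltf-led cells, 0.572 to 1.31 in the cells led by Xcl1 and Cd160 and -0.321 to -0.0852 in Fcnb-led cells.

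Members' median log2 fold, inhibitor over untreated: library-size scaling alone gave 0.122 over all cells and 0.548 in the cells led by Xcl1 and Cd160. Keeping cell cycle genes in the clustering gave 0.551 in CD8 T cells, -0.254 in Ltf-led cells and 0.779 in the Xcl1 and Cd160 cells. Keeping the doublet calls gave 0.507 in the Xcl1 and Cd160 cells and 0.0649 in gamma-delta T cells. The filter of at least 1 count gave 0.416 in the Xcl1 and Cd160 cells and -2.19 in mature B cells. With a mouse left out the medians ran from 0.172 to 0.522 over all cells and -0.0737 to 1.64 in B cell precursors. They ran from -0.286 to 0.644 in CD4 T cells and -0.197 to 0.507 in CD8 T cells. In Fcnb-led cells they ran from -0.108 to 0.172 and in microglia from -0.628 to 0.00574. They ran from 0.452 to 1.23 in NK cells, 0.543 to 0.640 in the Xcl1 and Cd160 cells, -0.454 to 1.03 in dendritic cells other than plasmacytoid, and -0.467 to 0.152 in gamma-delta T cells. The ranges were -2.87 to 0.0201 in mature B cells, -0.130 to 0.215 in mature neutrophils, -0.269 to 0.289 in monocytes and macrophages, 0.412 to 1.37 in plasmacytoid dendritic cells and -1.23 to -0.237 in regulatory T cells.

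Members called, inhibitor over untreated, where edgeR called 0: the filter of at least 1 count gave 7 in Ltf-led cells, 7 in mature B cells, 3 in NK cells, 2 in plasmacytoid dendritic cells, and 1 each in CD8 T cells, regulatory T cells and dendritic cells other than plasmacytoid. DESeq2 gave 2 in Ltf-led cells. With a mouse left out the counts ran from 0 to 7 over all cells, 1 to 13 in Ltf-led cells, 0 to 7 in NK cells, 0 to 2 in the Xcl1 and Cd160 cells, 0 to 7 in mature B cells, 0 to 6 in plasmacytoid dendritic cells and 0 to 10 in regulatory T cells.

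Members called between types: the filter of at least 1 count gave 23 in regulatory over CD4 T cells, 28 in gamma-delta over CD4 T cells, 19 in CD8 over CD4 T cells and 2 in NK over CD8 T cells. DESeq2 gave 22 for regulatory T cells, 16 for CD8 T cells and 2 for NK cells. Thinning gave 3 for regulatory, 6 for gamma-delta and 4 for CD8 T cells, 5 for plasmacytoid dendritic cells and 15 for microglia. For CD8 T cells, library size alone gave 4 and keeping the doublet calls 11. With a mouse left out the counts ran from 1 to 24 for regulatory and 8 to 15 for gamma-delta T cells. They ran from 1 to 15 for CD8 T cells and from 0 to 1 for NK cells. The share of all genes called is given for the main fits alone. Counts of members under the alternatives, here and earlier, therefore lack that background.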
